A study of Sus scrofa with 92 samples.

Results

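Liver biopsies taken 2 hours into full resuscitation (FR2) were compared between Carbohydrate Prefed (CPF) and Fasted (FS) pigs after hemorrhagic shock and polytrauma. The comparison takes every FR2 library of the series, 5 CPF and 18 FS, which are 23 of 92 libraries, 1 from each of 23 animals. All animals were male Yorkshire-Landrace pigs and all, CPF animals included, had been fasted overnight. The groups differed in a sugar load, diluted Karo Syrup, that only the CPF animals had about an hour before anesthesia. Both groups were splenectomized, were given a blunt chest injury and a liver crush injury, were bled into shock, and received limited and then full resuscitation with fluid and shed blood. The labels record that 2 of 5 CPF animals (animals 7 and 8) and 3 of 18 FS animals (animals 2, 16 and 20) died. The animals are the part of a larger cohort that had a biopsy at every timepoint. The question was whether a carbohydrate load before shock is still seen in liver RNA at the first biopsy after resuscitation began.

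In the liver, glucose and insulin act on transcription through the carbohydrate response element binding protein (encoded by MLXIPL) and the sterol regulatory element binding proteins, whose targets make fatty acids and cholesterol. Fasting acts through glucagon, glucocorticoids and PPARA, and favors gluconeogenesis, amino acid breakdown and fatty acid oxidation. Shock and reperfusion add immediate early transcription factors such as FOS and EGR1, whose messages rise within minutes of a stimulus and are short lived, and chemokines that draw leukocytes to the organ.

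Values are given as CPM, read counts scaled to library size after TMM (trimmed mean of M values) normalization. The 5 CPF values are in the order of animals 3, 7, 8, 13 and 18, and the FS values as the lowest, median and highest of 18. Fold changes are log2, CPF against FS, with the standard error (SE) of the edgeR fit. Library totals were 9015564 to 13839006 counts in CPF and 8260616 to 13755162 in FS. Hepatocyte markers were abundant in all 23 libraries, with ALB (albumin) at 66637 to 131668 CPM in CPF and 28465 to 111311 CPM in FS.

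Several FS libraries stood apart. That of FS animal 11 had no count at all on 905 tested genes that carried at least 10 counts in each of the other 22 libraries, a number that was at most 1 in any other library. Among them were all 13 mitochondrial messages, which made 4.70% to 9.35% of the counts elsewhere. Its median Spearman correlation with the other libraries over the tested genes was 0.754, against 0.904 to 0.964 for the rest. Of the 905 genes, 898 were at 0 in the FR8 library (8 hours of full resuscitation) of the same animal too. Counts over all tested genes, and some list values, are therefore given with and without animal 11. ATF3 is the one gene described below that was at 0 in it for this reason. The FR2 libraries of FS animals 10, 17, 19 and 21 were low in hepatocyte messages, with ALB at 28465 to 41154 CPM against 76524 to 111311 CPM in the other 14 FS libraries. Without these 4 libraries, an alternative chosen after seeing the data, 0 genes were called and 377 higher and 406 lower genes had an unadjusted p under 0.05. FS animal 20 carried the highest FS values of several fed-state genes at FR2, which is described with those genes.

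At Baseline (B), before the injury, the libraries labelled as liver of FS animals 17, 19 and 21 held almost no hepatocyte messages. Their summed hepatocyte markers were 2.44, 167 and 1.94 CPM, against 83308 to 214799 CPM in the other 15 FS libraries. Their striated muscle markers summed to 19088, 28079 and 20652 CPM, against at most 36.2 CPM in the others. Baseline fold changes and changes from Baseline are therefore given with and without these 3 libraries.

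With the quasi-likelihood test of edgeR and Benjamini-Hochberg adjustment, 0 of 11892 genes tested were called at an adjusted p under 0.05 and a log2 fold change of at least 1 (0% called), and the smallest adjusted p was 0.535. DESeq2 also called 0, edgeR's likelihood ratio test called 2 and limma-voom with quality weights called 4, which are named below. An unadjusted p under 0.05 was reached by 278 genes that were higher in CPF (2.34% of those tested) and by 386 that were lower (3.25%), 664 in all. Of all tested genes 44.8% had the higher fitted level in CPF, and the median log2 fold change was −0.04. In no gene did the 5 CPF libraries all lie above or all below the 18 FS libraries (0%). Without FS animal 11 the counts at an unadjusted p under 0.05 were 351 higher (2.96%) and 488 lower (4.12%) of 11848, with 0 called and 2 genes whose groups did not overlap (0.0169%). The exact permutation test over all 33649 ways of choosing 5 of the 23 libraries gave an adjusted p under 0.05 for 0 genes, with 654 genes under 0.05 before adjustment. The values below are accordingly a description of which genes differed most, and an unadjusted p is given with each so that its weight can be read against those shares. The samples come from separate animals, so these p-values measure the spread between animals.

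Immediate early genes were among those with the smallest p in the CPF direction. Of 15 tested, 13 had a higher mean in CPF and 11 of these had an unadjusted p under 0.05, with a median log2 fold change of 1.25. Without FS animal 11 the median was 1.21, and between group medians it was 0.58. The summed level was highest in CPF animals 7 and 8, the CPF animals that died. Summed over the 15 genes, the CPF libraries held 1114, 3410.2, 3263, 694 and 710.4 CPM, and the FS libraries held from 197 to 1245 CPM with a median of 783. Animals 7 and 8 were thus above all 18 FS libraries, while CPF animals 3, 13 and 18 lay inside the FS range.

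FOS, a subunit of the AP-1 transcription factor, measured 129.6, 630.0, 914, 7.63 and 86.8 CPM in CPF and from 3.17 to 191 CPM with a median of 46.2 in FS. The 2 highest of the 23 libraries were those of CPF animals 7 and 8, and animal 13 was lower than all but 1 of the FS libraries. The log2 fold change was 2.49 ± 0.68 (SE), with an unadjusted p of 0.00110 and an adjusted p of 0.691 by edgeR, and the exact permutation test on log2(CPM + 1) gave p = 0.0621. EGR1, a zinc finger transcription factor of the same class, measured 143, 303, 448, 25.6 and 29.2 CPM in CPF and from 14.7 to 111 CPM with a median of 69.9 in FS. Here 3 CPF libraries exceeded the highest FS library and the other 2 were lower than all FS libraries but that of animal 11 (log2 fold change 1.502 ± 0.41, p = 0.00129, exact permutation p = 0.130). CPF animals were therefore spread to both sides of the FS animals in this gene.

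ATF3, a stress-induced transcription factor, measured 139, 533, 454, 11.4 and 37.2 CPM in CPF and at most 168 CPM in FS, where the lowest value apart from animal 11 was 5.77. IER2, an immediate early nuclear protein, measured 23.5, 93.5, 55.3, 9.49 and 7.63 CPM in CPF and from 7.32 to 20.4 CPM with a median of 15.4 in FS. NR4A2, an orphan nuclear receptor, was at 2.20, 6.57, 34.3, 1.05 and 1.43 CPM in CPF and from 0.400 to 8.28 CPM with a median of 1.10 in FS, so that its CPF mean rested on animal 8. DUSP1, a phosphatase that switches off MAP kinases, measured 241, 654, 588, 292 and 169.5 CPM in CPF and from 24.8 to 337 CPM with a median of 140.0 in FS, and in this gene all 5 CPF libraries were above the FS median. The log2 fold changes were 1.88 ± 0.71, 1.42 ± 0.34, 2.25 ± 0.59 and 1.25 ± 0.40, with unadjusted p of 0.0138, 0.000361, 0.000806 and 0.00413. MYC, IER3, FOSL2, NR4A3 and EGR2, all with an unadjusted p under 0.05, had log2 fold changes from 0.93 (MYC) to 1.41 (EGR2), and FOSL1 and KLF4 were the 2 members of the list with a lower mean in CPF.

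**Figure D1:**
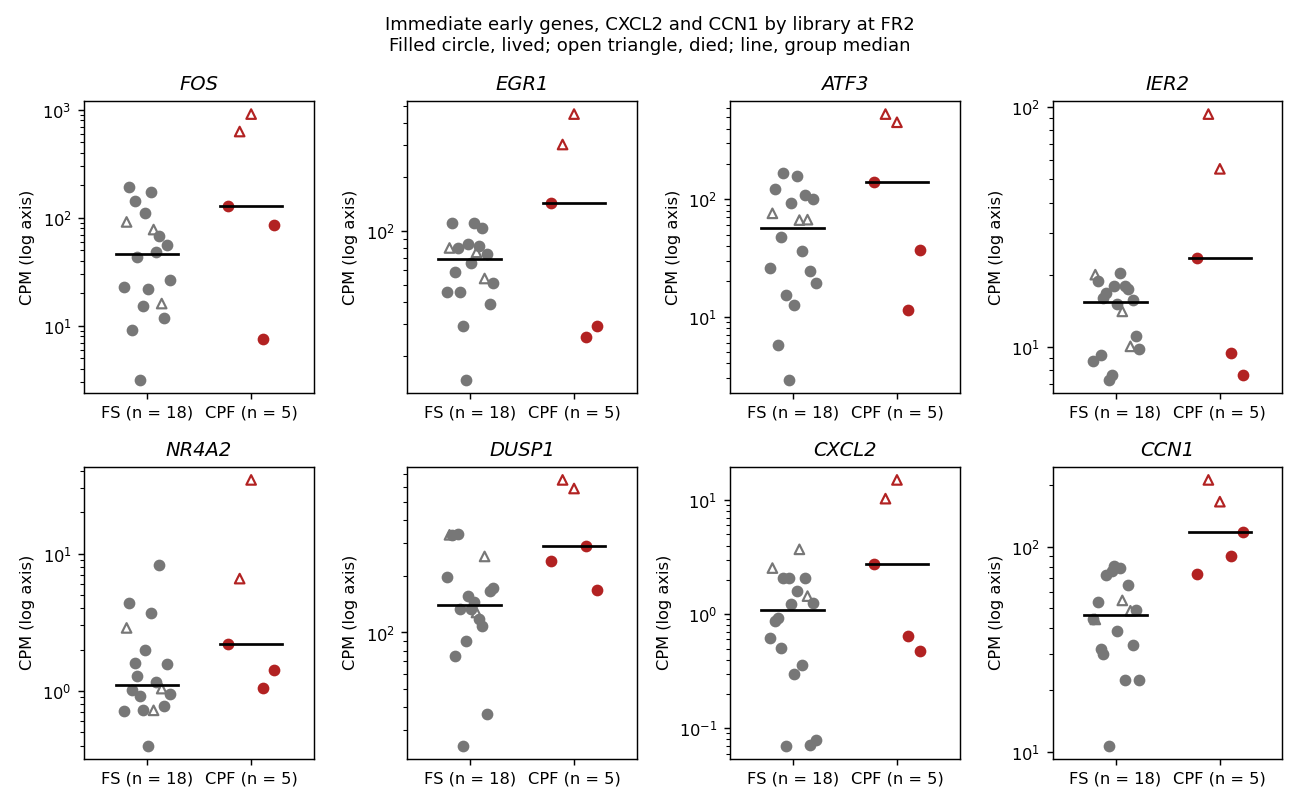
CPM on a log axis for FOS, EGR1, ATF3, IER2, NR4A2, DUSP1, CXCL2 and CCN1 in each FR2 library, for 18 FS and 5 CPF animals, with animals that died as open triangles and the group median as a line (a value of 0, in ATF3, is drawn just under the lowest positive value). The 2 CPF animals that died hold the highest values in every panel except that of NR4A2, where animal 7 (6.57 CPM) lies under the highest FS library, and in CCN1 4 of 5 CPF libraries lie above all FS libraries.

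Summed over the list, the FS animals that died did not have such levels, since no FS library exceeded 1245 CPM. In single members some did. MYC was at 335 CPM in FS animal 20, against 329 and 290 CPM in CPF animals 7 and 8. IER3 was at 150 CPM in FS animal 2, against 300 and 135 CPM in CPF animals 7 and 8. FOS was at 91.7, 77.9 and 16.1 CPM in FS animals 2, 16 and 20. Among animals that lived (3 CPF, 15 FS) the median log2 fold change of the list was −0.016 and 6 of 15 members had the higher mean in CPF. Without CPF animals 7 and 8, but with the FS animals that died, the median was −0.057. With 2 and 3 animals that died, the survival label and the single animal cannot be told apart in these values. At Baseline the summed level of the list was 466 CPM in CPF animal 7 and 1539 CPM in CPF animal 8, against 208 to 1286 CPM in all 18 FS animals, so animal 8 was above the FS range before the injury. At 8 hours (FR8) the same animals measured 586 and 486 CPM, inside the FS range of 195 to 926 CPM (median 261). The highest CPF library was then that of animal 18, which lived, at 675 CPM. Of the 15 genes 14 had the higher mean in CPF at 8 hours (median log2 fold change 0.36), when 51.5% of all tested genes did. An unadjusted p under 0.05 was reached by 3 of them, FOS included (1.998 ± 0.53, p = 0.000944).

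CCN1 (also known as CYR61), a secreted matrix protein that serum and mechanical stress induce, had the smallest p of any gene with a symbol. It measured 73.4, 212, 166, 89.8 and 118 CPM in CPF and from 10.7 to 80.7 CPM with a median of 46.5 in FS. All CPF libraries except that of animal 3 were above the highest FS library, and only 3 FS libraries were above animal 3. The log2 fold change was 1.47 ± 0.30 with a 95% interval of 0.84 to 2.09, an unadjusted p of 5.52e-05 and an adjusted p of 0.535 (edgeR quasi-likelihood). The exact permutation p was 0.000267. CCN1 passed both limits under edgeR's likelihood ratio test (adjusted p = 0.00889) and limma-voom (adjusted p = 0.0386), and DESeq2 gave an adjusted p of 0.0703. Among animals that lived its log2 fold change was 0.97 ± 0.40 (p = 0.0253), where that of FOS was 0.24 ± 0.89 (p = 0.793). A second gene called by the same 2 tests, ENSSSCG00000026798, has no symbol in the tables used here. It measured 40.1, 46.9, 20.7, 69.2 and 44.9 CPM in CPF and from 7.88 to 40.7 CPM with a median of 15.5 in FS (log2 fold change 1.33 ± 0.29, edgeR likelihood ratio adjusted p = 0.0220).

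Several chemokines were likewise highest in CPF animals 7 or 8. CXCL2, a neutrophil attractant, was at 2.75, 10.3, 15.1, 0.649 and 0.477 CPM in CPF and from 0.0704 to 3.71 CPM with a median of 1.08 in FS (log2 fold change 2.27 ± 0.63, p = 0.00126). CXCL10, an interferon-inducible attractant of T cells, was at 43.9, 237, 36.1, 30.3 and 27.4 CPM in CPF and from 9.95 to 72.3 CPM with a median of 27.7 in FS (log2 fold change 1.41 ± 0.43, p = 0.00308), so its difference rested on CPF animal 7. For F3, tissue factor, the initiator of coagulation, the CPF values were 6.77, 99.7, 33.8, 10.3 and 10.4 CPM and the FS values ran from 1.61 to 36.7 CPM with a median of 7.58 (log2 fold change 1.82 ± 0.52, p = 0.00165), and animal 7 was again the highest of all 23. Without CPF animals 7 and 8 the 3 fold changes were 0.12, 0.27 and 0.014. Of 10 chemokines and adhesion molecules tested 7 had the higher mean in CPF and 3 had an unadjusted p under 0.05, CXCL8 (1.51) being the third, with a list median of 0.48. That median was 0.16 without CPF animal 7, 0.14 without CPF animal 8 and −0.050 without both. The neutrophil markers are at low levels: their sum over 6 tested genes was 24.8, 103, 33.5, 23.6 and 15.4 CPM in CPF and from 8.30 to 69.2 CPM with a median of 22.7 in FS. Their list median was 0.55, −0.19 without CPF animal 7 and −0.42 without CPF animals 7 and 8, and their part in the chemokine values was not tested.

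A further set of differences concerned genes of the fed state. Of 16 genes of glucose sensing tested, 15 had the higher mean in CPF, with a median of 0.44, and 2 had an unadjusted p under 0.05. Without CPF animals 7 and 8 it was 11 of 16 with a median of 0.34, and 0 higher members were under 0.05. Among animals that lived it was 11 of 16 with a median of 0.38. MLXIPL, the glucose-responsive transcription factor, measured 62.4, 131, 85.6, 85.5 and 55.4 CPM in CPF and from 21.2 to 151 CPM with a median of 36.3 in FS. All 5 CPF libraries were above the FS median, and only 2 FS libraries were above the lowest of them. The log2 fold change was 0.99 ± 0.31 (p = 0.00345, adjusted p = 0.773 by edgeR, exact permutation p = 0.00285). FGF21, a hormone that the liver secretes on carbohydrate loading as well as on fasting, measured 14.9, 34.4, 23.8, 11.3 and 2.50 CPM in CPF and from 0.170 to 37.9 CPM with a median of 2.04 in FS (log2 fold change 1.57 ± 0.74, p = 0.0452). All CPF values of FGF21 were above the FS median.

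Genes of cholesterol synthesis were higher in CPF in 15 of 15 members tested, with a median of 0.73 and the highest value in FDPS (1.14), and 3 had an unadjusted p under 0.05. FDPS, farnesyl diphosphate synthase, measured 382, 665, 328, 443 and 395 CPM in CPF and from 41.6 to 599 CPM with a median of 176 in FS. Only 2 FS libraries were above the lowest CPF library (log2 fold change 1.14 ± 0.37, p = 0.00505, exact permutation p = 0.00517). SQLE, squalene epoxidase, measured 150.3, 456, 151, 250.3 and 81.7 CPM in CPF and from 14.6 to 323 CPM with a median of 96.4 in FS. Animal 7 was the highest of all 23 libraries in both genes. The log2 fold change of SQLE was 0.99 ± 0.47 (p = 0.0435). Without CPF animals 7 and 8, 12 of 15 members still had the higher mean in CPF, with a median of 0.43 (0.43 without animal 7 alone). Without FS animals 10, 17, 19 and 21 it was 15 of 15 with a median of 0.53, and 1 member was under 0.05. FDPS then had 0.92 ± 0.31 (edgeR p = 0.00729) and SQLE 0.74 ± 0.40 (p = 0.0770). The summed level of the list was 894 to 1897 CPM in these 4 libraries and 1573 to 6398 CPM in the other 14 FS libraries.

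Of 12 genes of fatty acid and triglyceride synthesis 9 had the higher mean in CPF, with a median of 0.38. Without CPF animals 7 and 8 it was 6 of 12 with a median of −0.024, and the median was 0.18 without CPF animal 7 alone, 0.21 without CPF animal 13, 0.094 among animals that lived and 0.22 between group medians. SCD, the desaturase that makes oleate, measured 667, 2190.4, 941, 726 and 211 CPM in CPF and from 20.7 to 2397 CPM with a median of 110.3 in FS (log2 fold change 1.92 ± 0.74, p = 0.0154, exact permutation p = 0.00217). Apart from animal 18, every CPF library had at least 667 CPM, a level that the FS library of animal 20 exceeded and the other 17 FS libraries did not reach. AGPAT2, an acyltransferase of triglyceride synthesis, went the other way (22.4, 34.3, 27.1, 36.9 and 46.1 CPM in CPF, from 23.2 to 63.8 CPM with a median of 45.5 in FS, log2 fold change −0.48 ± 0.19, p = 0.0183). FASN, the fatty acid synthase, had a log2 fold change of 1.27 ± 0.77 (p = 0.111).

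FS animal 20 lay on the CPF side of these genes. Its FR2 values were 2397 CPM for SCD, 151 for MLXIPL, 599 for FDPS and 37.9 for FGF21, each the highest of the 18 FS libraries, where the other FS libraries reached at most 331, 55.7, 366 and 17.8 CPM. With FS animal 20 left out, edgeR's quasi-likelihood test called 2 genes, SCD (log2 fold change 2.92 ± 0.46, adjusted p = 0.00973) and MLXIPL (1.23 ± 0.20, adjusted p = 0.00973). No other animal left out gave a call. Since these 2 genes are among those by which animal 20 was seen to stand apart, the calls without it are a description and no independent support. Whether its label is right was not tested.

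Among the genes of insulin and insulin-like growth factor (IGF) signalling, IGF1 itself, which hepatocytes secrete, measured 12.6, 6.004, 13.5, 8.44 and 4.05 CPM in CPF and from 0.271 to 6.68 CPM with a median of 3.69 in FS. All CPF libraries were above the FS median and 3 of 5 above the highest FS library (log2 fold change 1.36 ± 0.41, p = 0.00273, adjusted p = 0.773 by edgeR, exact permutation p = 0.00363). IGFALS, which holds IGF1 in its circulating complex, measured 32.8, 34.2, 29.5, 30.5 and 37.2 CPM in CPF and from 6.21 to 39.7 CPM with a median of 20.3 in FS (log2 fold change 0.72 ± 0.29, p = 0.0193), so the CPF animals were nearly equal to each other. Of 10 genes of the list tested 8 had the higher mean in CPF (median 0.28, but 0.15 without CPF animal 8, 0.047 without CPF animals 7 and 8, 0.052 among animals that lived and 0.071 between group medians), and INSR, the insulin receptor, had the lowest fold change (−0.52 ± 0.41, p = 0.219). IGF1 was also higher in CPF without the animals that died (1.18 ± 0.44, p = 0.0152).

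**Figure D2:**
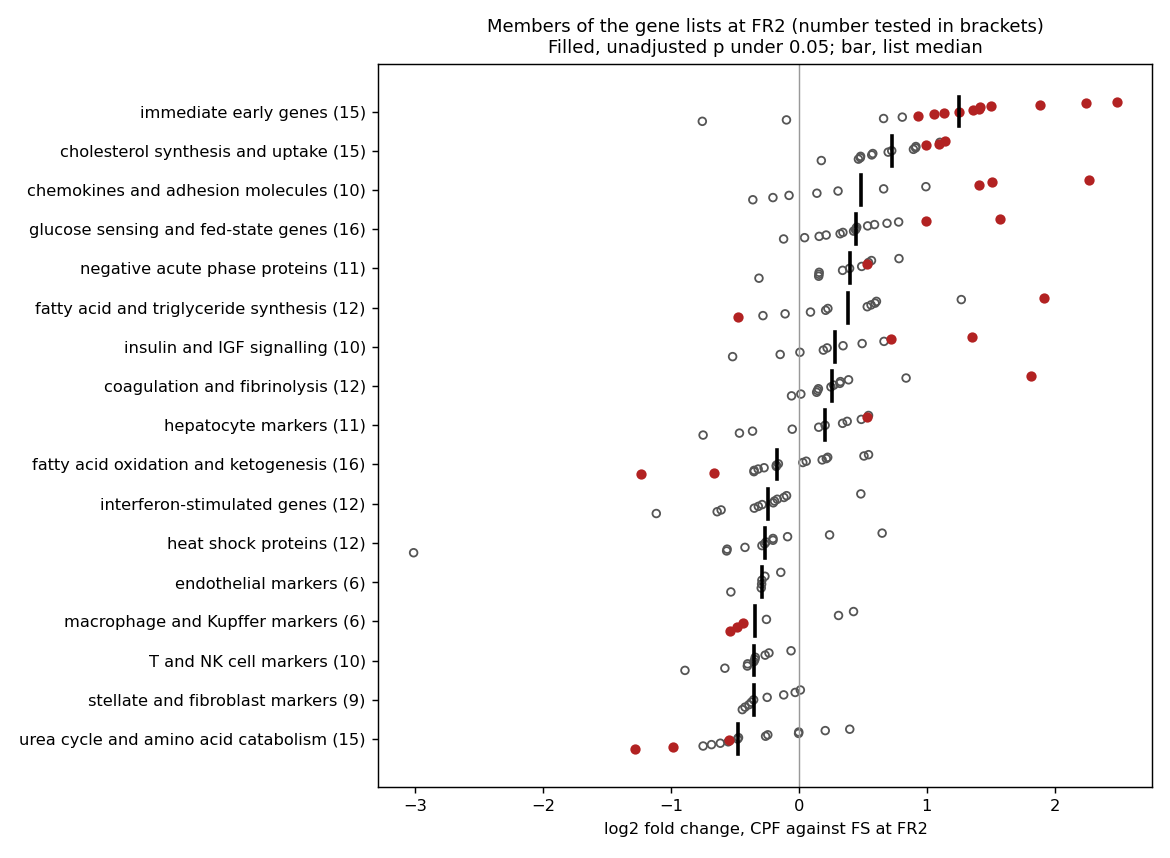
Fitted log2 fold change of CPF against FS at FR2 for each tested member of 17 gene lists, with the number tested in brackets, filled red points for an unadjusted p under 0.05 and a bar at the list median. Immediate early genes (1.25) and cholesterol synthesis (0.73) have the highest medians, and urea cycle and amino acid catabolism (−0.48) the lowest.

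Genes of amino acid breakdown and the urea cycle were lower in CPF in 13 of 15 members tested (median −0.48, and −0.75 without CPF animal 8), and 3 of them, CTH, GLS2 and ASL, had an unadjusted p under 0.05. Without FS animals 10, 17, 19 and 21, 9 lower members were under 0.05, 2 of 15 were higher and the median was −0.64. CTH, cystathionine gamma-lyase, which makes cysteine from methionine, measured 157, 121, 172, 96.4 and 176 CPM in CPF and from 71.3 to 814 CPM with a median of 299.9 in FS. GLS2, the liver glutaminase, measured 19.4, 8.38, 35.0, 12.7 and 30.3 CPM in CPF and from 14.4 to 65.0 CPM with a median of 42.7 in FS. In both genes all CPF libraries were under the FS median, and 4 (CTH) and 5 (GLS2) FS libraries were under the highest CPF library. Fold changes were −1.28 ± 0.45 (p = 0.00887) for CTH and −0.98 ± 0.33 (p = 0.00583) for GLS2. ASL, argininosuccinate lyase of the urea cycle, measured 193, 208, 233, 183 and 344 CPM in CPF and from 162 to 665 CPM with a median of 331 in FS (log2 fold change −0.55 ± 0.26, p = 0.0435). CPS1, the enzyme by which ammonia enters the cycle, measured 2599, 1078, 2849, 1531 and 1943 CPM in CPF and from 675 to 6917 CPM with a median of 3438 in FS (log2 fold change −0.75 ± 0.39, p = 0.0662).

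AGXT, a glyoxylate aminotransferase, is not in that list and was among the 12 genes with the smallest p in the FS direction. It measured 77.8, 97.8, 100.4, 58.3 and 160.1 CPM in CPF and from 52.0 to 781 CPM with a median of 252 in FS. All 5 CPF libraries were under the FS median, and 5 FS libraries were under the highest CPF library, that of animal 18. The log2 fold change was −1.56 ± 0.45 (95% interval −2.50 to −0.63, p = 0.00204, adjusted p = 0.737 by edgeR, exact permutation p = 0.00695). The lowest FS library was again that of animal 20, which was also the lowest for GLS2.

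Among genes of fatty acid oxidation the directions were mixed, with 7 of 16 members higher in CPF and a median of −0.17, which was −0.085, −0.10 and −0.076 without CPF animals 3, 7 and 8 in turn, −0.11 and −0.10 without FS animals 4 and 15, and 0.072 without CPF animals 7 and 8 together. PPARA, the nuclear receptor of the fasting response, measured 3.48, 10.3, 4.53, 2.68 and 3.93 CPM in CPF and from 3.14 to 39.0 CPM with a median of 8.82 in FS (log2 fold change −1.24 ± 0.54, p = 0.0298), and the groups overlapped. SLC25A20, which carries acylcarnitines into mitochondria, was at 28.9, 18.4, 28.04, 23.8 and 27.9 CPM in CPF and from 15.7 to 80.8 CPM with a median of 39.6 in FS (log2 fold change −0.67 ± 0.29, p = 0.0319). All its CPF values were under the FS median. Without FS animals 10, 17, 19 and 21 SLC25A20 had −0.43 ± 0.25 (edgeR p = 0.0981). Of 12 genes of gluconeogenesis and glycogen tested, 8 were higher in CPF with a median of 0.055, and PCK1, its entry enzyme, measured 2283, 5157, 3691, 1432 and 1668 CPM in CPF and from 748 to 5645 CPM with a median of 1941 in FS (log2 fold change 0.31 ± 0.36, 95% interval −0.44 to 1.06, p = 0.405).

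**Figure D3:**
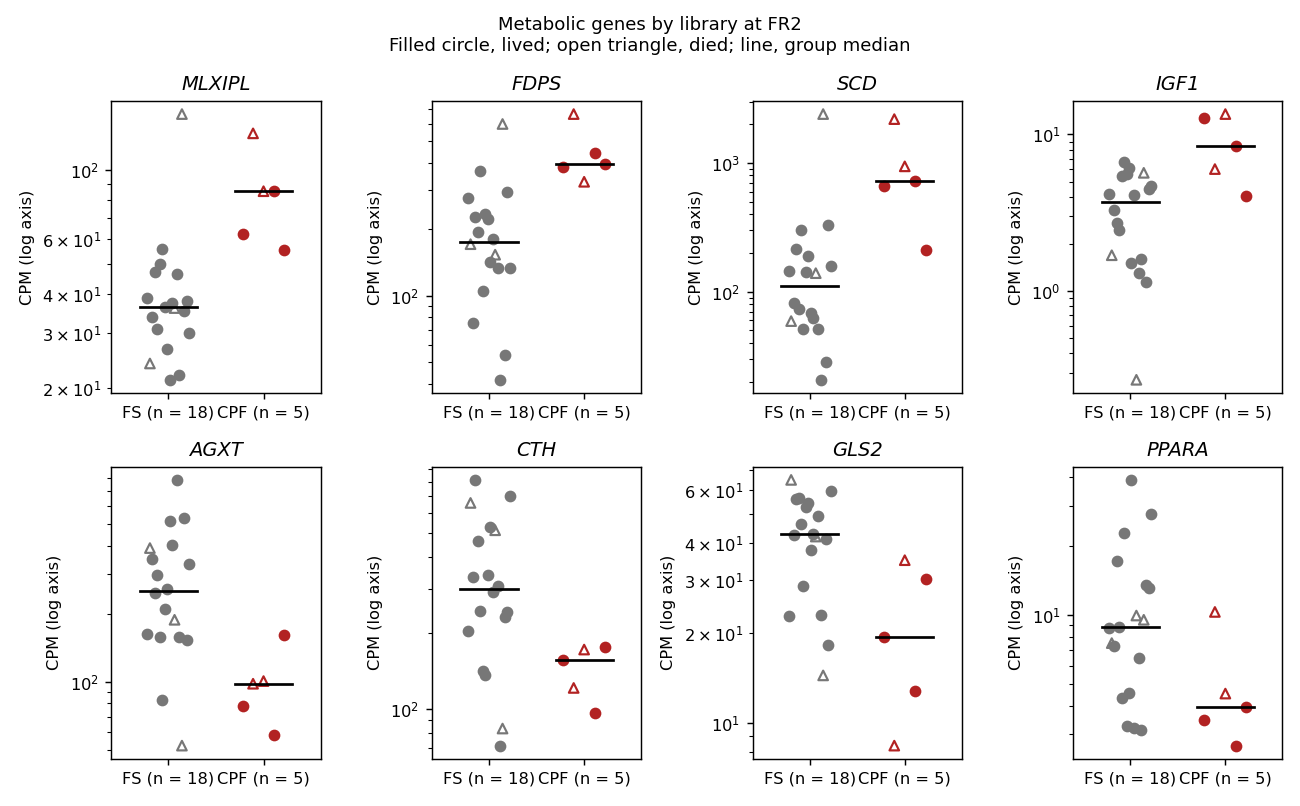
CPM on a log axis for MLXIPL, FDPS, SCD, IGF1, AGXT, CTH, GLS2 and PPARA in each FR2 library, for 18 FS and 5 CPF animals, with animals that died as open triangles and the group median as a line. One FS animal that died, animal 20, is the highest FS library for MLXIPL (151 CPM), FDPS (599 CPM) and SCD (2397 CPM) and the lowest for AGXT (52.0 CPM) and GLS2 (14.4 CPM).

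Plasma proteins that the liver makes less of in an acute phase response were higher in CPF in 10 of 11 members (median 0.40), and without FS animals 10, 17, 19 and 21, the libraries low in hepatocyte messages, in 9 of 11 (median 0.20). Over this list and the hepatocyte markers the 4 libraries differ from the other FS libraries by the values that set them apart. TF, transferrin, was the one with an unadjusted p under 0.05, at 18415, 19620.5, 19758, 32996 and 18308 CPM in CPF and from 6357 to 22212 CPM with a median of 16425 in FS (log2 fold change 0.53 ± 0.25, p = 0.0397), and all CPF values were above the FS median. Without the 4 libraries TF had 0.35 ± 0.17 (p = 0.0549). The library of FS animal 11 had 4 of the 11 genes at 0, and without it 4 members were higher with an unadjusted p under 0.05. Coagulation and fibrinolysis genes were higher in 11 of 12 members, with a median of 0.26 (0.15 without the 4 libraries, 0.15 among animals that lived), and F3 was the only one with an unadjusted p under 0.05. Heat shock proteins (10 of 12 lower in CPF, median −0.26) and interferon-stimulated genes (11 of 12 lower, median −0.24) held no member with an unadjusted p under 0.05. Without FS animal 11, 1 heat shock member, lower in CPF, was under 0.05. Both medians were nearer 0 by group medians (−0.037 and −0.046) and with limma-voom (−0.041 and 0.0081). That of the heat shock proteins was −0.14 without FS animal 9, −0.14 without FS animal 19, −0.15 without CPF animal 7 and −0.41 without CPF animal 8, and that of the interferon-stimulated genes was −0.12 without FS animal 10 and 0.028 without FS animals 10, 17, 19 and 21. All these shares stand beside the 44.8% of all tested genes with the higher fitted level in CPF.

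Markers of macrophages, T and NK cells, endothelial and stellate cells were mostly lower in CPF and those of bile ducts were not. In bulk RNA, fewer cells of a type and less RNA per cell cannot be told apart. Macrophage and Kupffer cell markers were lower in 4 of 6 tested, with CD68 (−0.49 ± 0.20, p = 0.0246), CSF1R (−0.44 ± 0.17, p = 0.0182) and MSR1 (−0.54 ± 0.19, p = 0.00833) under 0.05 and MARCO (0.43 ± 0.38, p = 0.270) and TIMD4 higher. CSF1R, the receptor that keeps macrophages alive, measured 14.8, 20.2, 19.4, 13.3 and 12.3 CPM in CPF and from 14.6 to 35.1 CPM with a median of 20.5 in FS, with all CPF values under the FS median. T and NK cell markers were lower in 10 of 10 (median −0.35), endothelial markers in 6 of 6 (median −0.29) and stellate cell and fibroblast markers in 8 of 9 (median −0.35), and none of these had a member with an unadjusted p under 0.05. Without FS animal 11, 1 stellate cell and fibroblast marker, lower in CPF, was under 0.05. B and plasma cell (0 of 4 higher, median −0.075) and adipocyte markers (0 of 2, −0.73) were lower in all tested members. Without FS animal 11, 3 of 4 B and plasma cell markers were higher in CPF (median 0.085). Among animals that lived 2 of 4 were higher (median −0.13). Cholangiocyte (3 of 4 higher, median 0.35), smooth muscle (3 of 4, 0.084) and erythroid markers (2 of 3, 0.56) were higher in most, with none under 0.05. Without FS animals 10, 17, 19 and 21, 1 of 4 smooth muscle markers was higher in CPF (median −0.057), and so was the 1 adipocyte marker still tested (0.12). The cholangiocyte markers of the bile ducts summed to 125, 141, 199.6, 118 and 122 CPM in CPF and from 19.3 to 415 CPM with a median of 70.2 in FS. Hepatocyte markers were higher in 7 of 11 with a median of 0.21, which was 0.074 without CPF animal 13, 0.10 without FS animals 10, 17, 19 and 21, and 0.012 between group medians. The stellate median was −0.083 without FS animal 19, −0.14 without CPF animal 13 and −0.11 between group medians. The endothelial median was −0.18 without CPF animal 3, −0.48 without CPF animal 8 and −0.14 without FS animals 10, 17, 19 and 21, and the T and NK cell median −0.56 without CPF animal 3 and −0.17 between group medians. Summed over the tested members, macrophage markers ran from 254 to 405 CPM in CPF and from 249 to 598 CPM with a median of 364 in FS, so the groups overlapped. The part of cell composition in the differences above was not tested.

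Striated muscle markers, which the liver does not make, were near 0 in CPF at FR2. ACTA1, skeletal muscle actin, was at 0.275, 0.340, 0, 0.0811 and 0 CPM in CPF. In FS animals its median was 0.169 CPM, with up to 65.5 CPM in FS animal 15. MYL1 and TNNC2, muscle myosin light chain and troponin, had no count in any CPF library, and their FS medians were 0. A handful of FS libraries with muscle messages thus set the means of such genes. Of the contractile genes that the study displays, 21 were tested at FR2, 17 had the lower mean in CPF and 2, NEB and PDLIM3, had an unadjusted p under 0.05. That list was drawn from these same animals and is not independent evidence of its direction. NEB, a giant muscle filament protein, measured 0.641, 0.113, 0.394, 0 and 0.715 CPM in CPF and from 0.0704 to 11.8 CPM with a median of 1.85 in FS (log2 fold change −2.69 ± 0.95, p = 0.00920). The median difference over the list was −0.40 between fitted means and −0.060 between group medians.

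Of the other genes with the smallest p in the CPF direction, several were above the FS median in every CPF animal. CA2, carbonic anhydrase, measured 50.3, 91.9, 146, 72.5 and 91.7 CPM in CPF and from 7.91 to 85.0 CPM with a median of 30.6 in FS (log2 fold change 1.37 ± 0.34, p = 0.000535, exact permutation p = 0.00143). MIF4GD, a factor in the translation of histone messages, measured 40.4, 54.9, 40.9, 50.9 and 45.9 CPM in CPF and from 27.3 to 41.3 CPM with a median of 35.1 in FS, a small and even difference in which 1 FS library was above the lowest CPF library (0.40 ± 0.10, p = 0.000450, exact permutation p = 8.92e-05). ISOC2 (0.72 ± 0.19, p = 0.000672) and RCE1, a protease that trims prenylated proteins (0.72 ± 0.21, p = 0.00169), had all CPF values above the FS median too. RNF122, a ubiquitin ligase, measured 4.49, 8.72, 17.2, 1.05 and 3.22 CPM in CPF and from 1.17 to 4.47 CPM with a median of 2.66 in FS (1.46 ± 0.36, p = 0.000413), and here animals 3, 7 and 8 were above every FS library and animal 13 was under every one. It is also 1 of 13 genes that the study lists for the change from Baseline to FR2 between the groups. Of these 13 genes, 10 were tested at FR2 and 3 had the higher mean in CPF (ANKRD1, HK2 and RNF122), and the list was chosen on these samples, so it is no independent evidence. The study's own contrast is the change from Baseline, and with all animals 10 of 10 tested were higher in CPF in it (median 1.34). That fit includes the Baseline libraries of FS animals 17, 19 and 21. Without these 3 animals the members were not all higher. DES then had a difference in change of −0.30 ± 0.25, and RNF122 had 1.61 ± 0.59. At Baseline 0 of 10 were higher (median −8.36), and 0 of 9 without FS animals 17, 19 and 21 (median −0.35).

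In the FS direction, PTPRS, a receptor tyrosine phosphatase, measured 3.75, 3.51, 4.62, 2.03 and 3.70 CPM in CPF and from 4.32 to 10.5 CPM with a median of 6.15 in FS. All CPF libraries except that of animal 8 were under the lowest FS library (log2 fold change −0.87 ± 0.21, p = 0.000428, adjusted p = 0.535 by edgeR, exact permutation p = 8.92e-05). ITPR2, the inositol trisphosphate receptor that releases calcium in hepatocytes, measured 3.75, 4.19, 2.56, 2.43 and 3.10 CPM in CPF and from 3.03 to 12.01 CPM with a median of 6.11 in FS. The one FS library within its CPF range was that of animal 11, and without it the groups did not overlap (lowest FS library 4.42 CPM). The fold change of ITPR2 was −1.02 ± 0.26 (p = 0.000682). ST3GAL1, a sialyltransferase, was at 96.8, 132, 102, 163 and 150.1 CPM in CPF and from 104 to 419.7 CPM with a median of 261 in FS (−1.03 ± 0.27, p = 0.000796), and was called by limma-voom (adjusted p = 0.0386). CA3, another carbonic anhydrase and the remaining gene that limma-voom called (adjusted p = 0.0386), went the other way, at 7.60, 12.2, 7.38, 12.4 and 2.50 CPM in CPF and from 0.0712 to 19.8 CPM with a median of 1.08 in FS, and the quasi-likelihood test gave it p = 0.0515. ARMC5 (−1.05 ± 0.27, p = 0.000699) and MIGA2, which acts in mitochondrial fusion (−0.95 ± 0.25, p = 0.000848), were under the FS median in all 5 CPF animals. The 5 lower genes, PTPRS, ITPR2, ST3GAL1, ARMC5 and MIGA2, were lower by a like amount among animals that lived, from −0.94 (ARMC5) to −1.15 (MIGA2).

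HERC1 (−0.50 ± 0.15, p = 0.00271) and BIRC6 (−0.43 ± 0.12, p = 0.00175), both very large proteins of the ubiquitin system, were also among the 12 genes with the smallest p in the FS direction. The remaining ones were NEURL1 (−1.90 ± 0.53, p = 0.00137), RNFT2 (−1.56 ± 0.46, p = 0.00247), CMTM7 (−0.85 ± 0.25, p = 0.00219) and SLC44A5 (−2.29 ± 0.71, p = 0.00344). A list of very large proteins chosen after these values were seen had 19 of 20 tested members lower in CPF, 6 with an unadjusted p under 0.05, and a median of −0.34. Short messages of cytosolic ribosomal proteins, a list chosen at the same stage, were higher in CPF in 21 of 21, with a median of 0.15. Transcript lengths were not used here, and the part of message length or RNA quality in these differences was not tested.

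The same animals were also compared at the other timepoints. CA2 had a fold change of 1.497 ± 0.41 at Baseline already (p = 0.00135), or 1.28 ± 0.26 without FS animals 17, 19 and 21 (p = 5.98e-05), and a fold change of −0.15 ± 0.48 at 8 hours (p = 0.763). At Baseline IGF1 had 0.89 ± 0.37 (p = 0.0243) with all libraries and 0.77 ± 0.35 (p = 0.0402) without those 3. The Baseline values of ISOC2 were 0.60 ± 0.18 (p = 0.00257) and 0.54 ± 0.17 (p = 0.00329). Cholesterol synthesis genes were higher in CPF in 13 of 15 members at Baseline without FS animals 17, 19 and 21, with a median of 0.35 (15 of 15 and 0.59 with them, whose summed level of these genes was 197 to 202 CPM against 1047 to 8597 CPM in the other FS libraries). At 8 hours 0 of 15 were higher (median −0.84), when 51.5% of all tested genes were higher in CPF. Their summed level at 8 hours was 918 to 1340.1 CPM in CPF and 699 to 7929 CPM with a median of 1275 CPM in FS. AGXT had a log2 fold change of −2.52 ± 0.57 at 8 hours (p = 0.000173), with 33.1 to 66.2 CPM in 4 CPF animals, 28.3 CPM in FS animal 20 and 110.4 to 820.1 CPM in the other 17 FS animals. GLS2 (−1.999 ± 0.54, p = 0.00116) and ASL (−1.07 ± 0.38, p = 0.00891) were lower in CPF at 8 hours as well, and whether these differences change between FR2 and FR8 was not tested. Without FS animals 17, 19 and 21, Baseline fold changes were −0.90 ± 0.33 for AGXT (edgeR p = 0.0127) and −0.70 ± 0.23 for GLS2 (p = 0.00550). Those of CTH and ASL were −0.99 ± 0.35 (p = 0.00970) and −0.31 ± 0.25 (p = 0.225). With these 3 libraries AGXT had −0.64 (p = 0.444) and GLS2 −0.43 (p = 0.626). Differences in change from Baseline to FR2 without the 3 animals were −0.45, −0.39, −0.32 and −0.28 (AGXT, GLS2, CTH, ASL), with p from 0.179 to 0.347. At 8 hours the fold changes of PTPRS (−0.26 ± 0.31, p = 0.414) and CCN1 (−0.029 ± 0.34, p = 0.934) lay within their error of 0. FR8 has 4 CPF libraries, since the authors left out that of animal 3, and it includes the FS library of animal 11.

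**Figure D4:**
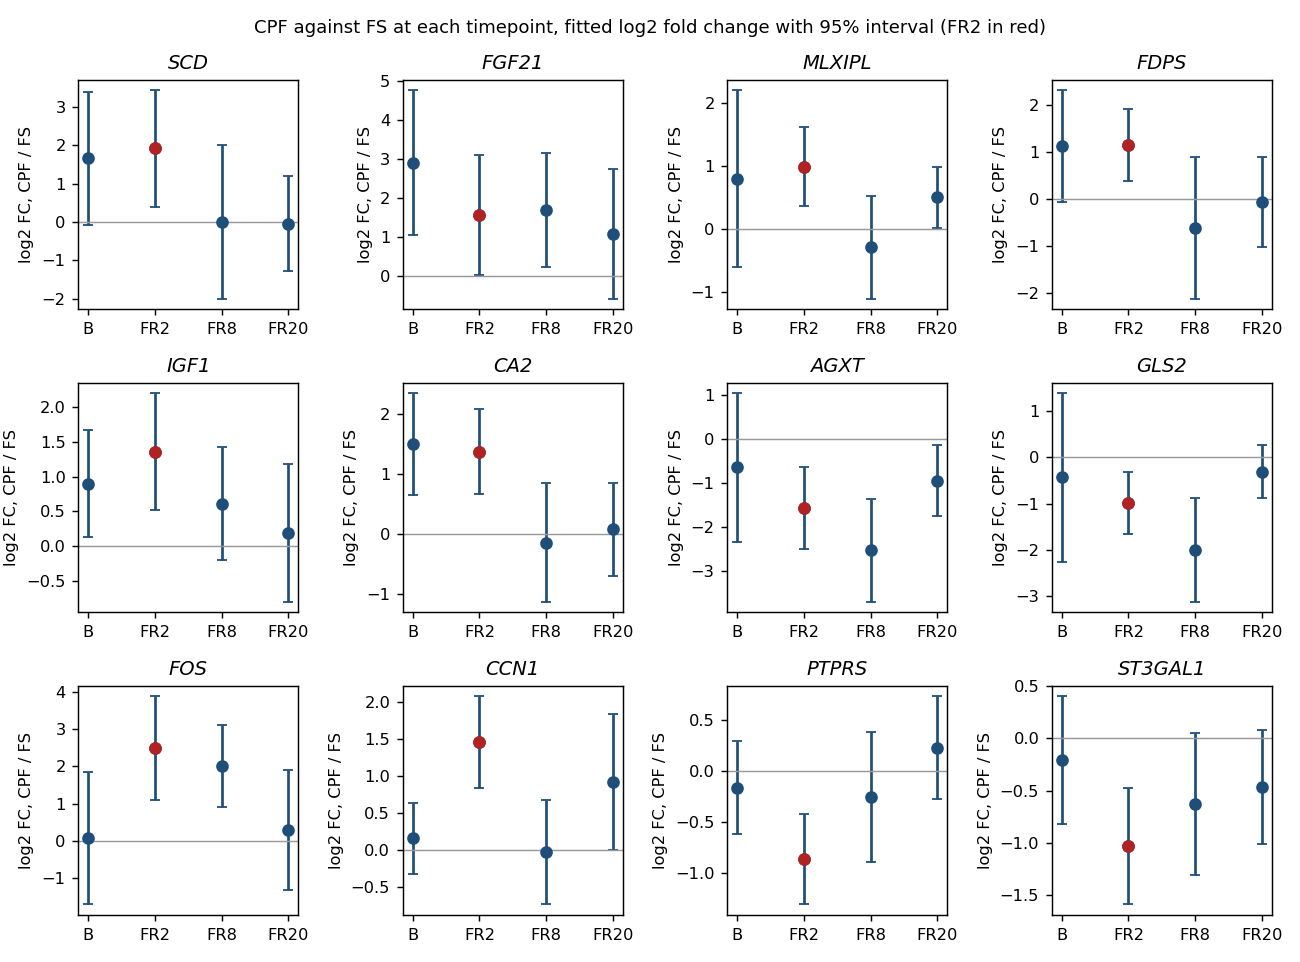
Fitted log2 fold change of CPF against FS with its 95% interval at B, FR2 (red), FR8 and FR20 for 12 genes, each timepoint fitted on its own libraries, with FS animals 17, 19 and 21 included at B. CCN1, PTPRS and ST3GAL1 have their largest fitted difference at FR2 and AGXT and GLS2 at FR8. Without FS animals 17, 19 and 21 the values at B are −0.90 for AGXT and −0.70 for GLS2.

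Set against each animal's own Baseline, the change to FR2 was called as different between CPF and FS in 0 of 13159 genes by the edgeR fit with a term for each animal, with 309 genes at an unadjusted p under 0.05. Without FS animals 17, 19 and 21 the numbers were 0 of 12586 and 488. The difference in change, CPF minus FS on the log2 scale, was 1.39 ± 0.34 for CCN1 (p = 0.000402, unadjusted and 1.32 ± 0.34, p = 0.000795 without them) and 1.97 ± 0.71 for RNF122 (p = 0.0106, and 1.61 ± 0.59, p = 0.0123 without them). The Baseline values of RNF122 were −1.35 ± 0.65 (p = 0.0485) and −0.46 ± 0.33 (p = 0.179). The difference for ARMC5 was −1.15 ± 0.35 (p = 0.00295) and for PTPRS −0.68 ± 0.24 (p = 0.00969), with −1.11 ± 0.37 (p = 0.00621) and −0.64 ± 0.23 (p = 0.0120) without the 3 animals, and none of these passed adjustment. These contrasts share the FR2 libraries with the comparison above and are no independent support for it.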

How the data were processed

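From each of 23 liver biopsies at FR2 the authors took the polyadenylated RNA (oligo-dT selection, Illumina TruSeq) and sequenced it as single reads. Per the labels, reads were aligned to Sscrofa10.2 with TopHat 1.5.0, sorted with SAMtools and counted per pig Ensembl gene with HTSeq. The deposited table holds raw counts with no pooling, and all 92 columns matched a sample. Its name marks it as filtered, but by what rule is not stated. Of its 25322 identifiers, 18356 had at least 1 count in the series. HTSeq's settings are not given in the sources used here, so genes that share sequence may lose counts. Symbols came from a gene name table (11804) and the study's tables (700).

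Genes with a summed CPM of at least 10 were tested with edgeR 4.0.16 (TMM, quasi-likelihood F test, 2-sided, no covariate). Calls needed a log2 fold change of at least 1 either way and p under 0.05 after Benjamini-Hochberg adjustment, the limits of the study. DESeq2 1.42.0 and limma 3.58.1 were alternatives. Exact permutation tests used log2(CPM + 1). Named genes were the 12 with the smallest p in each direction (mean of at least 1 CPM), the extreme, most abundant and p under 0.05 members of 45 gene lists and the study's own list, while genes called only by another test were added. The genes, lists and tests were chosen with earlier results of these data known. Tests were tested on simulated data. Animals are numbered by the shared stem of their titles. The labels give no sequencing batch. Some genes are not reported here.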

Additional observations from a re-analysis of the deposited data

Results flagged for a closer look

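In 5 of 69 sets of 5 CPF values checked, 1 library was far from the other 4 by Dixon's test, where chance gives about 1 in 20. The count is near that rate. All sets come from the same 5 libraries, so they are not independent. NR4A2 was at 34.3 CPM in animal 8 and 1.05 to 6.57 CPM in the others (gap over range 0.834). For cholesterol synthesis the summed level was 8125 CPM in animal 7 and 2538 to 3918 CPM in the others (0.753). The unfolded protein response list summed to 7761 CPM in animal 7 and 5189 to 5928 CPM in the others (0.713), and the neutrophil markers to 103 CPM in animal 7 and 15.4 to 33.5 CPM in the others (0.793). Cholangiocyte markers summed to 199.6 CPM in animal 8 and 118 to 141 CPM in the others (0.725). Each of the 5 involves an animal that died (7 or 8), and whether that exceeds chance was not tested.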

How the results depend on the processing

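The count of genes called was 0 with RLE normalization, with the CPM filter at 3, with filterByExpr or no filter, with DESeq2, a survival term, the last 2 digits of the title number as a factor, all 91 libraries in 1 fit, and without FS animals 17, 19 and 21 (or 10, 17, 19 and 21). It was 2 with the likelihood ratio test, 4 with limma-voom and 0 to 2 when each animal was left out. In alternatives chosen after seeing the data, without FS animal 11, DESeq2 called 1, the likelihood ratio test 6 and limma-voom 4. Genes with an unadjusted p under 0.05 numbered 664, 1218 with limma-voom (1285 without FS animal 11), 442 among animals that lived, 392 without CPF animals 7 and 8, and 398 (without CPF animal 7) to 839 (without FS animal 11) when each animal was left out. Limma-voom gave 670 higher and 548 lower, against 278 and 386. Genes whose groups did not overlap numbered 0 to 5 when each animal was left out, 5 without CPF animal 3.

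Among the 70 single genes followed, 17 of 2926 values changed direction, all among animals that lived or without CPF animals 7 and 8, which were also chosen after seeing the data. Among those that lived the log2 fold changes were −0.000956 (ATF3), −0.0163 (EGR1), −0.0574 (IER2), −0.0222 (IER3), −0.177 (NFIL3), −0.351 (NR4A2), −0.275 (NR4A3) and −0.311 (TNFAIP3), and without CPF animals 7 and 8 they were −0.0192 (ATF3), −0.0230 (EGR1), −0.0730 (EGR2), −0.0574 (IER2), −0.280 (IER3), −0.142 (NFIL3), −0.285 (NR4A2), −0.316 (NR4A3) and −0.384 (TNFAIP3). Of 774 list medians 15 moved by more than the spread between CPF libraries. Immediate early genes came to −0.0163 among those that lived and −0.0574 without animals 7 and 8, and neutrophil markers to −0.438 and −0.420. Chemokines came to −0.0501 without animals 7 and 8, and coagulation genes to 0.154 among those that lived and 0.154 without FS animals 10, 17, 19 and 21. Fatty acid oxidation came to −0.0211 with a survival term (−0.0331 also without FS animal 11), −0.0467 among those that lived, 0.0724 without animals 7 and 8, and −0.206 to −0.0761 when each animal was left out. Interferon-stimulated genes came to 0.00806 with limma-voom (0.00316 without FS animal 11) and 0.0281 without FS animals 10, 17, 19 and 21. At Baseline 3 genes in place of 1 were called without FS animals 17, 19 and 21, where F3 was at 0.14 and NEURL1 at 0.0690, and MIF4GD's change from Baseline was −0.0024. The cause of these moves was not tested.

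No paired analysis was possible of CPF against FS at FR2, because the groups are different animals. For the change from Baseline the animal term is a block, and without it 0 genes were called too (356 at an unadjusted p under 0.05) and NEURL1's change was 0.75 in place of a negative value. The median SE of a log2 fold change at FR2 was 0.30 with 5 CPF animals.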

Other observations

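Some other genes had an unadjusted p under 0.05 at FR2. SLC10A1, the bile acid uptake carrier of hepatocytes, measured 362, 315, 529.7, 363 and 426 CPM in CPF and from 35.7 to 412 CPM with a median of 208 in FS (log2 fold change 0.92 ± 0.37, p = 0.0201 by edgeR), with 2 FS libraries above the lowest CPF library. P4HA1, a collagen hydroxylase that hypoxia induces, was at 470.2, 151, 103, 216 and 216 CPM in CPF and from 61.4 to 245 CPM with a median of 141 in FS (0.74 ± 0.33, p = 0.0337). BHLHE40 and NFIL3, repressors of the circadian clock, were highest in CPF animals 7 and 8 (268 and 348 CPM for BHLHE40, from 29.6 to 261 CPM with a median of 90.0 in FS). Across 19 further lists with at least 5 tested genes the medians ran from −0.17 (liver glycolysis) to 0.37 (glucocorticoid targets), and 8 of 213 member entries had an unadjusted p under 0.05, 7 of them higher in CPF.

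FS animal 20 had the highest SCD of the FS animals at Baseline as well (2513 CPM, others 12.9 to 908 CPM) and the lowest AGXT of the FS animals at 20 hours (102 CPM, others 141 to 1007 CPM). It was not extreme throughout. From the highest of 18 FS animals, its SCD ranked 4 at 8 hours and 4 at 20 hours, its FDPS 16 at 20 hours, its FGF21 11 at 8 and at 20 hours, and its AGXT 12 at Baseline, where FS animals 17, 19 and 21 are among the 18. The other gene whose groups did not overlap without FS animal 11, chosen here after its values were seen, is ENSSSCG00000003891, at 79.3 to 90.3 CPM in CPF and 14.8 to 76.8 CPM in the other FS animals.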
